A study of Mus musculus with 8 samples.

Results

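Translation initiation factors are the proteins that bring the initiator tRNA, the small ribosomal subunit and a capped mRNA together and then release the ribosome to elongate. Their genes were described here in islets of mice in which a Cre driver had been combined with an ATF4 transgene. The members were chosen by name, as protein-coding genes whose mouse symbol begins with Eif and a digit from 1 to 6, a rule that uses no measured value. Of 55414 genes in the count tables, 42 were members. A further 13 protein-coding genes carry such a name but were left out by the rule, which drops the eIF2 kinases, the eIF4E-binding proteins and several subunits of eIF2 and eIF2B. The 11 pseudogenes and noncoding genes with the name were left out too.

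RNA came from pancreatic islets of C57BL/6 mice aged 5 weeks, with 4 libraries in each of 2 groups. In the labels the TG group is Ins2 cre(+/-) ATF4 TG(+/-) and the WT group is Ins2 cre(-/-) ATF4 TG(+/-), so the ATF4 transgene was present in both and only the Cre driver, which carries the name of the insulin 2 gene, set them apart. The group labelled WT therefore holds transgene carriers without Cre and not untouched animals, and no group with Cre alone was analysed here. The design text calls the transgene beta-cell-specific and the other mice wild type. The labels do not say that the replicates were different mice. The p-values below therefore rest on sample-to-sample spread that may be technical. Gene counts ran from 16521087 to 22499999 per library. The genes with any count numbered 39510, 38252, 38017 and 31088 in TG replicates 1 to 4 and 33093 to 34189 in the WT libraries. The reason for that difference was not tested. Levels below are CPM, counts scaled by library total, on TMM-scaled library sizes unless another scale is named, and every direction is for TG against WT as labelled.

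The libraries carried islet markers, and several cell type markers moved with the groups. The 10 beta-cell markers summed to between 50093 and 64198 CPM in TG and between 103120 and 123756 CPM in WT, and 10 of 10 were called lower. The 10 endothelial markers summed to between 1251 and 1300 CPM in TG and between 529 and 906 CPM in WT, with 10 of 10 called higher. Of 10 stromal, 8 macrophage and 6 duct markers, 6, 6 and 4 were called higher, and of 11 acinar markers and 9 markers of alpha, delta and PP cells 0 were called (edgeR quasi-likelihood test). The summed acinar markers reached 46626 CPM in TG replicate 1 against 1453 to 14469 CPM in the other libraries, and no marker of any list was at 0 in all libraries. Reads assigned to Atf4 stood at 261 ± 19.8 CPM (SD, n = 4) in TG and 352 ± 21.1 CPM (SD, n = 4) in WT (log2 fold change −0.43, SE 0.085, edgeR adjusted p = 0.00226), so the targeted gene read lower in the group labelled TG. The labels do not say whether transgene transcripts are counted under Atf4, so this count does not check them. In such bulk samples fewer cells of a type and less RNA per cell cannot be told apart.

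As background, eIF2 in its GTP-bound form carries the initiator methionyl-tRNA to the small subunit, eIF3 scaffolds the assembly, eIF1 and eIF1A hold it ready for scanning, and eIF4E, eIF4G and eIF4A bind the cap, bridge to eIF3 and unwind the mRNA leader. When eIF2 is phosphorylated under stress, most initiation slows while translation of Atf4 mRNA rises, and ATF4 is a transcription factor of that response. Beta cells depend on this control because they translate large amounts of proinsulin.

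Most initiation factor genes stayed near the WT level, and 6 were called. Of the 41 members that passed the filter on low counts, 4 were higher in TG at an adjusted p under 0.05 (Eif2s2, Eif3c, Eif1 and Eif1ad) and 2 were lower (Eif3b and Eif3m). These 6 genes made up 14.6% of the tested members, beside 20.1% called among all 20509 tested genes. The share called higher among all tested genes was 12.1% and the share called lower 8.06%. The median log2 fold change of the members was 0.04 against −0.00 over all tested genes, and the median size of the change, sign set aside, was 0.14 against 0.30. A change of at least 1.5-fold was measured for 1 member, Eif2s2, while 28.0% of all tested genes changed that much. Among the 7549 tested genes averaging 20 CPM or more, as 38 members did, 13.7% changed that much, 27.8% were called and the median size of the change was 0.19 on the log2 scale. The median standard error was 0.096 for the members and 0.21 for all tested genes. For 34 of the 35 members that were not called, the 95% interval of the fold change lay within 1.5-fold in either direction, and only that of Eif3j2, at 25 to 50 counts per library, was wider.

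**Figure D1:**
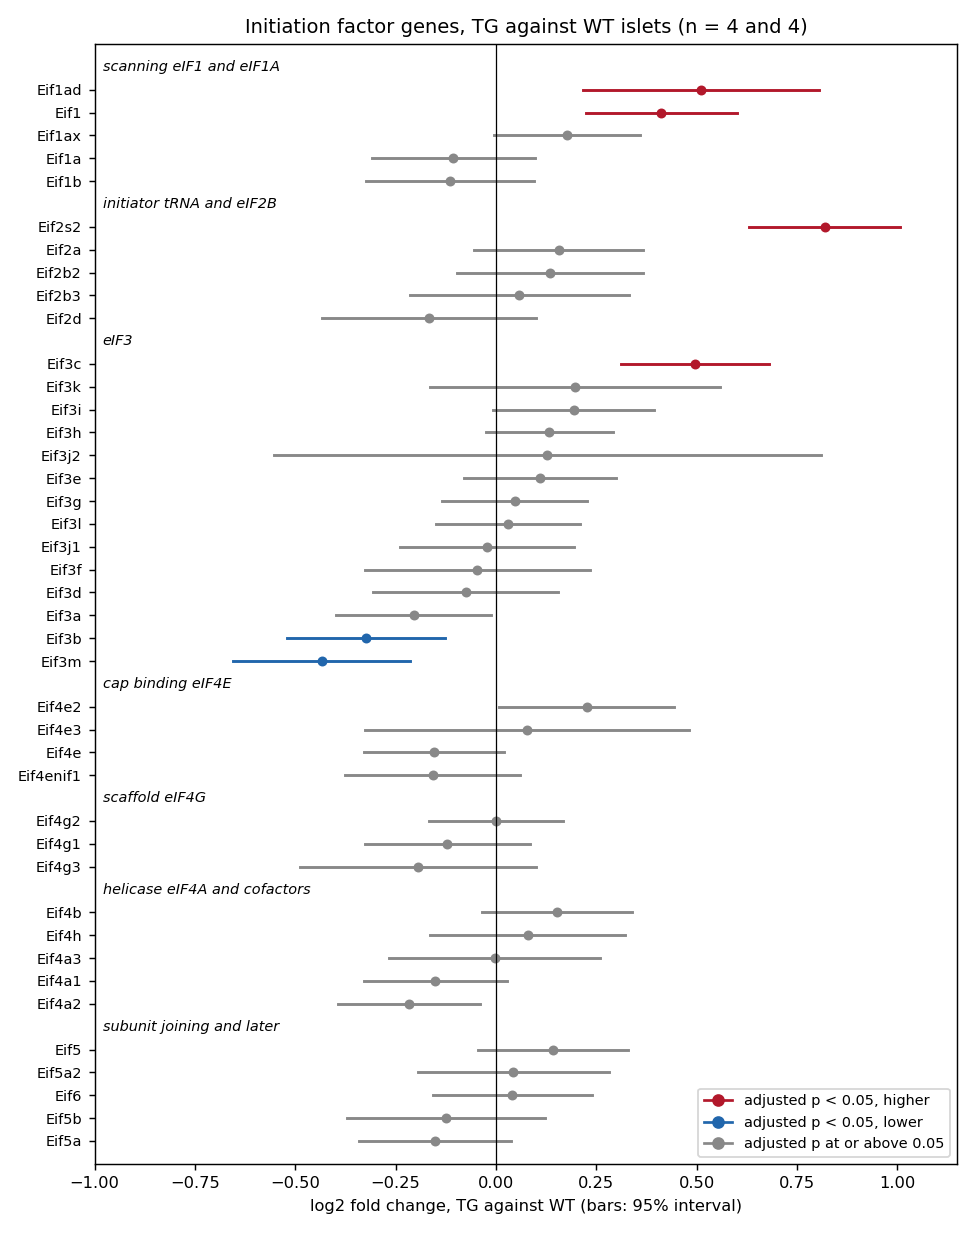
Log2 fold change (horizontal axis) of the 41 tested initiation factor genes, TG against WT, grouped by factor, with 95% intervals from the edgeR fit as bars (n = 4 and 4). Eif2s2 stands apart at 0.82, the eIF3 genes spread from −0.43 to 0.50, and no gene of the eIF4 groups or of the subunit joining group is coloured as called.

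The largest change among the members was in a gene for a core subunit of eIF2, the factor that carries the initiator tRNA. The branch as grouped here covers eIF2 and eIF2B only in part. The rule left out Eif2s1, Eif2s3x, Eif2s3y, Eif2b1, Eif2b4 and Eif2b5, whose changes are not described here. Eif2s2 (ENSMUSG00000074656), which encodes the beta subunit of eIF2, measured 342, 359, 325 and 380 CPM in TG replicates 1 to 4 and 209, 205, 174 and 209 CPM in WT replicates 1 to 4. Every TG library lay above every WT library. The rise was 1.76-fold (95% interval 1.55 to 2.01), with a log2 fold change of 0.82 (SE 0.089, adjusted p = 1.48e-05 by the two-sided edgeR quasi-likelihood fit). The other 4 members of this branch were not called. Eif2b2 and Eif2b3, subunits of the exchange factor eIF2B that reloads eIF2 with GTP, measured 0.14 and 0.06 on the log2 scale. Eif2a and Eif2d, proteins that can deliver tRNA without eIF2, measured 0.16 and −0.17. Adjusted p-values of these 4 lay between 0.305 and 0.808. Summed over the 5 genes, the branch held 511 ± 34.3 CPM in TG and 351 ± 20.2 CPM in WT (SD, n = 4 each), and the groups did not overlap. Without Eif2s2 the sums were 159 ± 14.2 and 152 ± 3.35 CPM, with overlapping groups. On gene counts without TMM scaling that sum was 163 CPM in TG and 147 CPM in WT, and the groups did not overlap (lowest TG library 152.3, highest WT library 151.6).

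Of the genes grouped by name with the scanning factors eIF1 and eIF1A, Eif1 and Eif1ad were higher and the other 3 were not called. Eif1ad stands in this group by its name only, and a part of its product in scanning was not tested. Eif1 (ENSMUSG00000035530), whose product keeps the scanning ribosome from settling on wrong start codons, measured 103, 109, 111 and 97.5 CPM in TG and 82.8, 77.7, 86.1 and 70.3 CPM in WT. Its lowest TG value exceeded its highest WT value, and the rise was 1.33-fold (1.17 to 1.52; log2 fold change 0.41, SE 0.089, adjusted p = 0.00407). Eif1ad (ENSMUSG00000024841), named for a domain like that of eIF1A, measured 24.9, 38.8, 27.9 and 32.2 CPM in TG and 19.6, 20.4, 22.6 and 24.4 CPM in WT. The groups did not overlap, but the lowest TG library and the highest WT library lay close together. The rise of Eif1ad was 1.43-fold (1.16 to 1.75; log2 fold change 0.51, SE 0.14, adjusted p = 0.0166). Its call was lost without TG replicate 2 (0.38, adjusted p = 0.0639), without WT replicate 1 (0.46, adjusted p = 0.0559) and without WT replicate 2 (0.48, adjusted p = 0.0601). Eif1a, which had the highest CPM of the branch over all 8 libraries though not in TG alone, measured 93.0 ± 9.54 CPM in TG and 100.1 ± 8.47 CPM in WT (SD, n = 4 each). Its X-linked relative Eif1ax measured 66.4 ± 4.87 and 58.7 ± 1.90 CPM (log2 fold change 0.18, adjusted p = 0.17), and Eif1b, a close relative of Eif1, measured 35.6 ± 2.11 and 38.5 ± 3.06 CPM (−0.11, adjusted p = 0.472).

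**Figure D2:**
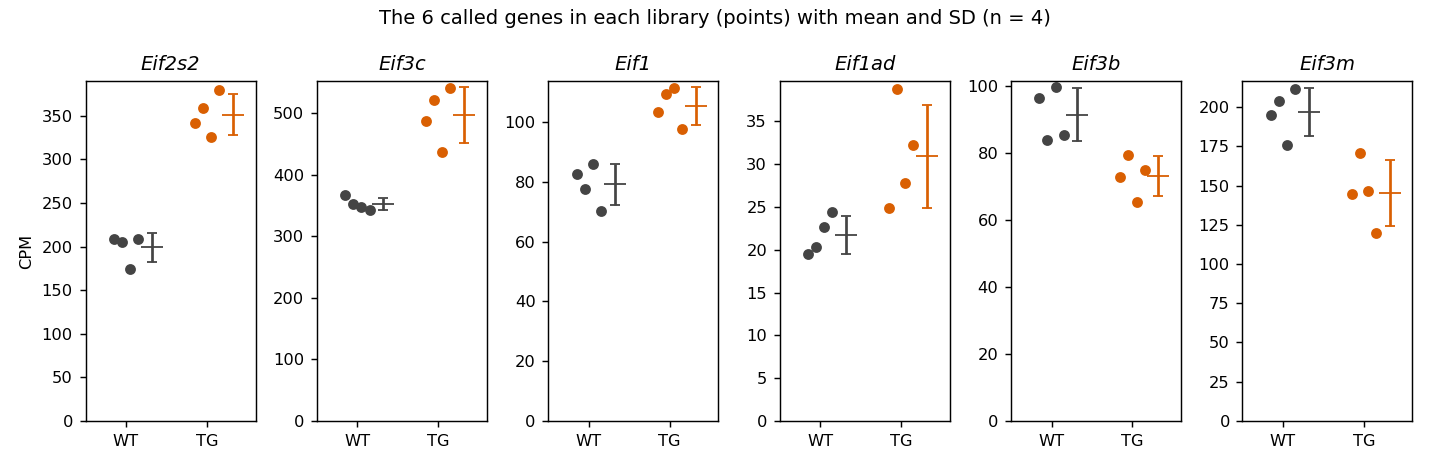
CPM (vertical axis, from 0) of the 6 called genes in the 4 WT and 4 TG libraries, 1 point a library, with mean and SD beside them. The groups are separate in all 6 panels, widest for Eif2s2 and narrowest for Eif1ad, whose highest WT library stands at 24.4 CPM and lowest TG library at 24.9 CPM.

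The genes of eIF3, the largest initiation factor, did not move in 1 direction. Of its 14 tested genes, 1 was higher, 2 were lower and 11 were not called, with a median log2 fold change of 0.04. The share called, 21.4%, was near the 20.1% of all tested genes. Eif3c (ENSMUSG00000030738), a subunit of the structural core, measured 488, 522, 438 and 542 CPM in TG and 367, 352, 348 and 343 CPM in WT, with no overlap. It rose 1.41-fold (1.24 to 1.602; log2 fold change 0.50, SE 0.086, adjusted p = 0.000899). Eif3m (ENSMUSG00000027170), another subunit of that core, measured 145, 171, 146 and 120 CPM in TG and 195, 204, 176 and 212 CPM in WT. Every TG library was below every WT library, and the level was 1.35-fold lower (1.16 to 1.58; log2 fold change −0.43, SE 0.10, adjusted p = 0.0082). Eif3b (ENSMUSG00000056076), the scaffold that carries the eIF3g and eIF3i subunits, measured 72.9, 79.3, 65.3 and 74.8 CPM in TG and 96.5, 84.0, 99.7 and 85.4 CPM in WT. It was 1.25-fold lower (1.09 to 1.43; log2 fold change −0.32, SE 0.092, adjusted p = 0.0223). The call of Eif3b was lost without TG replicate 3 (−0.31, adjusted p = 0.0569), without WT replicate 1 (−0.30, adjusted p = 0.0621) and without WT replicate 3 (−0.28, adjusted p = 0.056).

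Among the other eIF3 genes Eif3a, the largest subunit and the most abundant of these transcripts, measured 819, 846, 688 and 884 CPM in TG and 969, 929, 936 and 898 CPM in WT. The groups did not overlap, though the difference did not pass the test (log2 fold change −0.20, SE 0.091, adjusted p = 0.133) except without TG replicate 4 (−0.28, adjusted p = 0.0428). Eif3h also had separate groups, at 157 ± 4.25 CPM against 143 ± 5.58 CPM (SD, n = 4 each; 0.13, adjusted p = 0.243). Eif3i (0.19) and Eif3g (0.05), which bind Eif3b protein, were not called, and neither were Eif3d, which can bind caps itself (−0.08), Eif3e (0.11), Eif3f (−0.05), Eif3k (0.20) and Eif3l (0.03). Eif3j1 and Eif3j2, which both code for the loosely bound j subunit, measured −0.02 and 0.13. The summed eIF3 level was 2352 ± 157 CPM in TG and 2354 ± 48.5 CPM in WT (SD, n = 4 each). On gene counts without TMM scaling the sums were 2417 and 2272 CPM, a ratio of 1.06, with overlapping groups.

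Levels of different eIF3 genes were compared per kilobase of exon, with lengths from gene models of an earlier genome build. In WT they ran from 182 ± 5.70 CPM per kb for Eif3a down to 8.30 ± 0.80 for Eif3j1 and 0.79 ± 0.21 for Eif3j2 (SD, n = 4). Reads that fit several genes can be lost in counting, and their part in these levels was not tested. On this scale of levels Eif3m stood at 153 ± 11.96 CPM per kb and Eif3c at 104 ± 2.98 in WT, whereas in TG Eif3c stood at 147 ± 13.4 and Eif3m at 113 ± 16.3. The order of these 2 genes was therefore opposite in the mean of each group, a description that follows from their opposite changes and rests on the length models used.

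**Figure D3:**
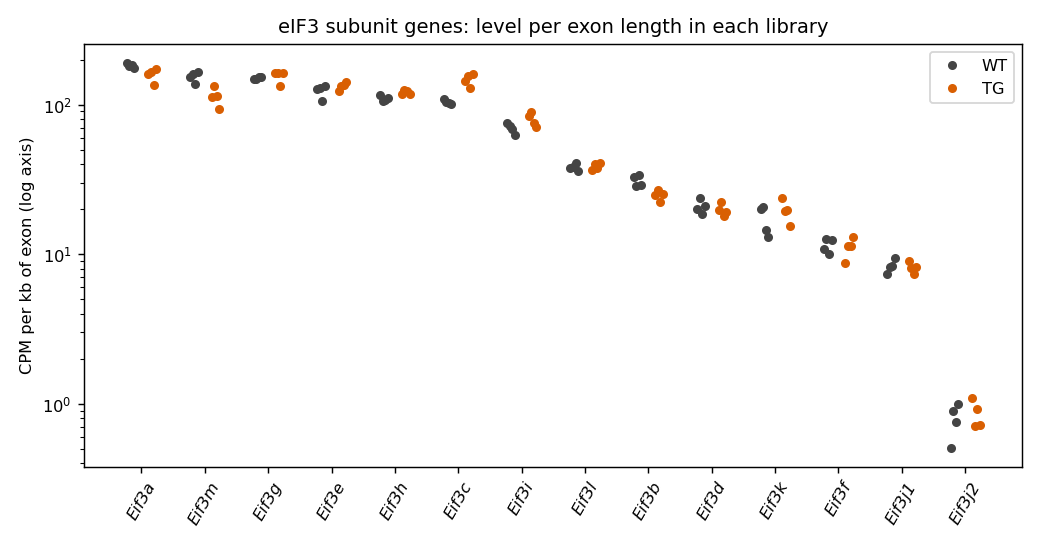
CPM per kb of exon (log axis) of the 14 eIF3 genes in each WT and TG library, ordered by the WT mean. Eif3c and Eif3m move in opposite directions between groups, and the level spans from 182 CPM per kb (Eif3a) to 0.79 (Eif3j2) in WT.

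None of the genes for cap binding, bridging and unwinding was called, beside 20.1% of all tested genes. Eif4e, the cap-binding protein, measured 95.3, 88.6, 92.4 and 103 CPM in TG and 110, 104, 99.2 and 109 CPM in WT (log2 fold change −0.15, SE 0.082, adjusted p = 0.215). Its highest TG value lay above its lowest WT value. Eif4e2, which encodes a cap-binding relative that represses translation, measured 31.7 to 32.3 CPM in TG and 24.0 to 30.2 CPM in WT, without overlap (0.23, SE 0.10, adjusted p = 0.141). Eif4e3 measured 0.08 and Eif4enif1, which carries eIF4E into the nucleus and to P-bodies, −0.16. Eif4e1b, known from oocytes, was the only member that failed the filter, with 8, 12, 2 and 10 counts in TG and 0, 4, 0 and 0 counts in WT. With 3 counts as the limit that a count of 0 allows, between 0.133 and 0.182 CPM by library, no fold is given for it. The scaffolds Eif4g1 and Eif4g3 measured −0.12 (adjusted p = 0.436) and −0.19 (adjusted p = 0.372). Eif4g2, a relative that lacks the eIF4E-binding part, measured 764 ± 30.2 CPM in TG and 763 ± 23.0 CPM in WT (SD, n = 4 each), a ratio of 1.0002 with a 95% interval from 0.89 to 1.12.

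The RNA helicase gene Eif4a2 had the highest level of all members, also per kilobase of exon. It measured 1064, 1175, 1185 and 1228 CPM in TG and 1408, 1320, 1283 and 1397 CPM in WT, with no overlap between groups. The difference missed the threshold (log2 fold change −0.22, SE 0.083, adjusted p = 0.0799), but it passed with limma-voom (−0.22, adjusted p = 0.0332), DESeq2 (−0.23, adjusted p = 0.022) and upper-quartile scaling (−0.26, adjusted p = 0.0341), and without TG replicate 4 (−0.28, adjusted p = 0.0418). Its relative Eif4a1 measured −0.15 (adjusted p = 0.237), and Eif4a3, which sits in the exon junction complex, −0.00 (adjusted p = 0.99). The helicase cofactors Eif4b and Eif4h measured 0.15 (adjusted p = 0.255) and 0.08 (adjusted p = 0.698). Without TG replicate 4 the scaffold gene Eif4g3 also passed (−0.37, adjusted p = 0.0277), which brought the members called lower from 2 to 5.

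None of the 5 genes grouped as subunit joining and later was called, beside 20.1% of all tested genes. Eif5, which triggers GTP hydrolysis on eIF2, measured 165, 192, 195 and 192 CPM in TG and 167, 160, 160 and 188 CPM in WT (log2 fold change 0.14, SE 0.088, adjusted p = 0.296). Eif5b, the GTPase of subunit joining, measured −0.12, and Eif6, which keeps large subunits apart from small ones, 0.04. Eif5a, whose protein carries the modified amino acid hypusine and helps elongation, measured −0.15, and its relative Eif5a2 0.04. The summed level of the 5 genes was 406 ± 10.99 CPM in TG and 403 ± 14.0 CPM in WT (SD, n = 4 each). Over all 42 members the sums were 7176 ± 323 and 7204 ± 83.8 CPM, a ratio of 0.996. On gene counts without TMM scaling that ratio was 1.06.

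Groups did not overlap for 11 of the 41 tested members (26.8%), beside 22.6% of all tested genes. They were the 6 called genes and Eif3a, Eif3h, Eif4a2, Eif4e2 and Eif1ax, which did not pass the test. Among genes averaging 20 CPM or more, groups did not overlap for 28.9% of 38 members and 29.9% of 7549 tested genes. The spread within a group had a median coefficient of variation of 9.29% in TG and 8.04% in WT over the tested members. Of the 41, 40 had at least 100 counts in every library.

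Related genes were compared as ratios of raw counts within each library, which need no scaling between libraries. The balance of Eif1 to Eif1b was 3.08, 2.93, 3.28 and 2.60 in TG and 1.98, 2.21, 2.14 and 1.91 in WT, without overlap (exact permutation test over 70 arrangements, two-sided, p = 0.0286, adjusted over 10 pairs p = 0.143). That of Eif4e to Eif4e2 was 3.002, 2.78, 2.86 and 3.23 in TG and 3.97, 3.81, 3.28 and 4.54 in WT, also without overlap (exact permutation p = 0.0286, adjusted p = 0.143). The value of 0.0286 is the smallest that 4 against 4 allows, and neither pair passed the adjustment. The difference of the mean log2 ratio was 0.53 for Eif1 to Eif1b and −0.39 for Eif4e to Eif4e2. In the other 8 pairs the groups overlapped, and exact permutation p-values lay between 0.0571 (Eif1a to Eif1ax, −0.28) and 0.657 (Eif4g1 to Eif4g3, 0.09). Eif4a1 to Eif4a2 was 0.174 ± 0.0059 in TG and 0.166 ± 0.0086 in WT (SD, n = 4 each). Reads that fit both genes of such a pair can be split or lost in counting, so the ratios are uncertain to that degree.

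Promoter sequence was available from RefSeq (GRCm38.p6) for 32 of the 42 members, as windows of 250 bases before and 50 after each transcript start. The core of the C/EBP-ATF response element was searched as TGATGNAA on both strands. It was in 0 of the 32 members, over 44 windows, and in 3.19% of the 13495 tested genes with a window. At so low a share, 0 of 32 says little about the members. Since no member held it, a pair of shorter sequences was searched afterwards. TGATG, the first 5 bases of that element, was in 5 of 32 members (15.6%) beside 34.0% of tested genes. TGACG, which belongs to a different element, that of cyclic AMP and ATF/CREB factors, was in 17 of 32 members (53.1%) beside 31.4% of tested genes. Both 5-base searches cover both strands, and a match describes letters, not binding. TGACG contains the base pair step CG and TGATG does not. The base composition of the member windows was not compared with that of other genes, so these shares are a description only. The stretches upstream of the start are printed for the 3 genes with the lowest adjusted p among those that rose and for the gene that fell most, with TGACG or its reverse complement in capitals. They lie on the minus strand at chr2:154892907-154893156 (Eif2s2), minus at chr7:126566367-126566616 (Eif3c), plus at chr11:100319699-100319948 (Eif1) and minus at chr2:105017028-105017277 (Eif3m).
Eif2s2: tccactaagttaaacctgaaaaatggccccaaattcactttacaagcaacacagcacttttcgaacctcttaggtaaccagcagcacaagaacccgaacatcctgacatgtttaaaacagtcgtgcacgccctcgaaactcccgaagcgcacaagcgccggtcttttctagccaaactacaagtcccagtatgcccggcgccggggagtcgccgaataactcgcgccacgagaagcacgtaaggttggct
Eif3c: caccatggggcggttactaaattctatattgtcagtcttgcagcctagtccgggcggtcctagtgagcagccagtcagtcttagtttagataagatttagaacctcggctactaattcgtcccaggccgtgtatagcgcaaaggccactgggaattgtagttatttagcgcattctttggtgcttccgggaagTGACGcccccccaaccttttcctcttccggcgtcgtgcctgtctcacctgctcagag
Eif1: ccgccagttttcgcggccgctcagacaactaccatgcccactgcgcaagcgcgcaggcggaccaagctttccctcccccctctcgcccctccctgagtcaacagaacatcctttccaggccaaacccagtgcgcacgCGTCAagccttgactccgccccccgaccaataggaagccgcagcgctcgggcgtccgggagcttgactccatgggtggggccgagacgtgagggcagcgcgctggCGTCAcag
Eif3m: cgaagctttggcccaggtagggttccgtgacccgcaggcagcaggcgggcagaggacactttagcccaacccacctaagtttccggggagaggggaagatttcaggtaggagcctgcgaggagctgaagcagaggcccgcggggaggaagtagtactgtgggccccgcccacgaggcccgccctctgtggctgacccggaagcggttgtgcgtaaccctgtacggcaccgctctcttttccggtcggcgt
The Eif2s2 and Eif3m stretches hold neither 5-base sequence. Eif3c holds TGACG once, beginning 57 bases before the start, and Eif1 holds its reverse complement at 113 and 8 bases before the start. Among the called members Eif1ad has a match too, at 80 bases, and Eif3b has none.

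Outside the Eif names, 22 regulators and helpers of initiation and 14 elongation and release factors were tested. Of the regulators 2 were higher and 2 lower (18.2% called, near the 20.1% of all tested genes), with a median log2 fold change of −0.08. Mknk2, a kinase of eIF4E, rose from 24.3 ± 5.45 to 39.1 ± 4.29 CPM (0.69, SE 0.14, adjusted p = 0.00341), and Bzw2, an eIF5-like regulator, from 24.4 ± 2.81 to 32.8 ± 3.68 CPM (0.43, adjusted p = 0.0196). Dhx29, a helicase for structured leaders, fell from 45.8 ± 1.77 to 34.95 ± 3.54 CPM (−0.39, adjusted p = 0.0118), and Denr, which acts in reinitiation, from 91.6 ± 3.39 to 76.5 ± 4.19 CPM (−0.26, adjusted p = 0.0333; SD, n = 4 each). Of the elongation and release factors 3 were higher and 0 lower (21.4% called, also near that share), with a median of 0.11 and 4 with an unadjusted p under 0.05. Eef2k, the kinase that inhibits elongation factor eEF2, rose most, with 28.9, 31.4, 32.4 and 37.7 CPM in TG and 12.4, 17.04, 16.7 and 16.7 CPM in WT (1.05, SE 0.13, adjusted p = 5.76e-05). Eef1d (0.27, adjusted p = 0.0279) and Eef1a1 (0.25, adjusted p = 0.0372) also passed, while Eef2 measured 0.05 (adjusted p = 0.792) and Hbs1l 0.21 (adjusted p = 0.125). The calls of Bzw2, Denr, Eef1d and Eef1a1 were each lost without 1 of several libraries, with adjusted p-values of up to 0.0912, 0.0815, 0.107 and 0.138. Over the 18 alternative settings Bzw2 was called in 13, Denr in 10, Eef1d in 8 and Eef1a1 in 7. Eef1d and Eef1a1 were both lost with upper-quartile scaling (edgeR adjusted p = 0.0519 and 0.0685) and with an acinar marker covariate (0.0577 and 0.0565). When low counts were left unfiltered both were lost too (0.125 and 0.0735), as was Denr (0.0933).

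Because endothelial and stromal markers separated the groups, the fit was repeated with their mean log2 CPM as a covariate. Eif2s2 was then the 1 member called, at a log2 fold change of 1.14 (adjusted p = 0.0036), where 318 of 20509 genes were called. Eif3c stood at 0.56 (adjusted p = 0.255), Eif1ad at 0.64 (adjusted p = 0.455) and Eif3b at −0.53 (adjusted p = 0.273), each no closer to 0 than without the covariate. Eif1 was at 0.18 (adjusted p = 0.826) and Eif3m at −0.16 (adjusted p = 0.871), both closer to 0, and so was Mknk2 at 0.02. Eef2k was at 1.13 (adjusted p = 0.0699). The calls of Dhx29 (−0.31, adjusted p = 0.685), Bzw2 (0.88, adjusted p = 0.0886), Denr (−0.31, adjusted p = 0.603), Eef1d (0.49, adjusted p = 0.283) and Eef1a1 (0.36, adjusted p = 0.525) were lost as well, and so was that of Atf4 (−0.47, adjusted p = 0.353). The covariate raised the median standard error over all tested genes from 0.21 to 0.41. With the acinar markers as the covariate instead, the same 6 members were called. The part of the other marker lists in these results was not tested.

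**Figure D4:**
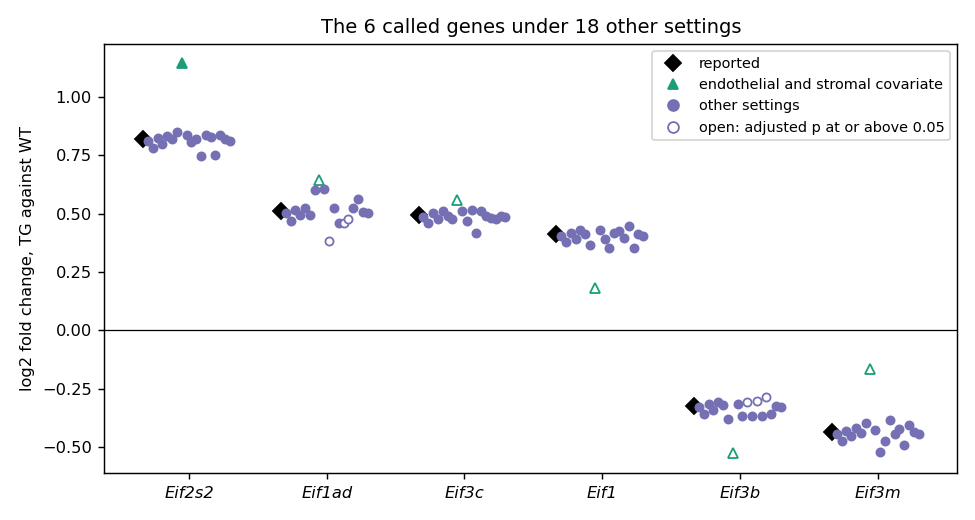
Log2 fold change (vertical axis) of the 6 called genes as reported (diamond), with the endothelial and stromal covariate (triangle) and under the 17 other settings (circles), open where the adjusted p was at or above 0.05. Every value keeps its sign, and Eif2s2 is filled throughout, between 0.75 and 1.14.

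Counting limits touch some of these genes. Exon overlaps were taken over all transcripts of the GRCm38 gene models, not only the basic transcripts used for exon length. On that basis Eif1ad shares 15.3% of its exon bases with Banf1 and Eif3m 3.17% with Ccdc73, both on the opposite strand. Also on the opposite strand, Eif3d shares 43.3% with Gm17638, Eif3j1 19.0% with Spg11, Eif5b 16.8% with Rev1 and Eif1b 12.7% with D830035M03Rik. Without the strand setting, reads from such stretches cannot be assigned to either gene with certainty. The ratio of Eif1 to Eif1b carries that limit too. On the same strand Eif4e3 shares 14.8% with Gm20696. Eif2s2, Eif3c, Eif1 and Eif3b share no exon base with another gene in those models.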

How the data were processed

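RNA sequencing counts of 8 islet libraries were used. The deposited values are whole-number read counts per Ensembl mouse gene, 1 table a library, with no normalization by the authors; the submitters' processing notes list STAR 2.7.10a, HTSeq 0.11.3 and mm39. Strand handling and annotation release are not given in the sources used here. Reads given to no gene or to several (25.3% to 31.5% and 3.74% to 4.36% of each table) were left out. Symbols, gene types and exon lengths came from GENCODE M21 (GRCm38), which named 52081 of 55414 identifiers; exon length is the union of exons of basic transcripts.

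Genes were filtered with filterByExpr (minimum count 10), scaled by TMM and tested in edgeR 4.0.16 under R 4.3.3 (quasi-likelihood, robust, two-sided, group as the only term), with Benjamini-Hochberg adjustment over 20509 genes. Calls needed an adjusted p under 0.05, and intervals at 95% use the standard error and the degrees of freedom of that fit. The alternatives were DESeq2 1.42.0, limma-voom (limma 3.58.1), 3 other scalings, 2 other filters, 2 marker covariates, the replicate number as a block and each library left out. Pairs were tested by exact permutation. The edgeR fit was also run on counts simulated with the dispersions of these data, with the outcome not given here. Members and lists were chosen with earlier results of these data known. Named are all members, up to 4 genes of each other list by adjusted p, plus Eef2, added after its value was seen, and Atf4. Replicates differed by more than counting noise (chi-square per gene 14.3 or more), so none was merged. Limits from counts cover counting error only.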

Additional observations from a re-analysis of the deposited data

Results flagged for a closer look

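In each group of 4 libraries a sample was marked where its gap to the nearest other sample exceeded Dixon's 95% limit as a share of the group's range. Chance marks about 1 in 20 groups, and 6 of 102 were marked here. Eif2s2 was 174 CPM in WT replicate 3 against 205 to 209 CPM in the other WT libraries, still below all TG libraries. Eif3g was 147 CPM in TG replicate 3 (others 179 to 180 CPM) and Eif4b 556 CPM in TG replicate 2 (others 461 to 465 CPM). Eif5 was 165 CPM in TG replicate 1 (others 192 to 195 CPM), and Eif4g3 was 102 CPM in WT replicate 1 (others 130 to 134 CPM). The ratio of Eif4g1 to Eif4g2 was 0.776 in WT replicate 3 and 0.585 to 0.592 in the other WT libraries, where Eif4g1 itself stood at 582 CPM against 436 to 472 CPM.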

How the results depend on the processing

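Over 18 alternative settings Eif2s2 was called in 18, Eif3c, Eif1 and Eif3m in 17, and Eif1ad and Eif3b in 14, always in the reported direction. With the endothelial and stromal covariate 1 member was called higher and 0 lower, where 7 members had an unadjusted p under 0.05 in edgeR. Leaving out 1 library gave 3 to 4 members higher and 1 to 5 lower, with 1 lower without TG replicate 3, WT replicate 1 or WT replicate 3 and 5 without TG replicate 4. With the replicate block the counts were 4 higher and 2 lower, the same 6 genes. Deviations of same-numbered libraries from their group means had correlations of −0.030 to 0.081. With the block 4673 of 20509 genes were called, against 4129 without it. The median standard error over all tested genes was 0.19 with the block and 0.21 without. Whether the numbers mark pairs or batches was not tested. The filter of 1 CPM and the acinar covariate also gave 4 and 2. On gene counts without TMM the ratio of summed levels, TG over WT, was 1.01 for cap binding (0.95 with TMM) and 0.99 for helicases (0.93). It was 1.18 for the eIF1 and eIF1A group (1.11), 1.06 for eIF3 (0.999) and 1.02 for the eIF4G scaffolds (0.96). For the eIF2 branch it was 1.55 (1.45), for subunit joining 1.07 (1.01) and for all members 1.06 (0.996). Eif1 to Eif1b kept its direction in all 8 leave-outs. Eif3j2 had only 25 to 50 counts a library. Whether depth or the loss of reads that also fit Eif3j1 set that level was not tested.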
